A study of Mus musculus with 4 samples.

Results

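The metallothionein and zinc handling genes described here were 7 of the 32285 genes of the count tables: the metallothioneins Mt1, Mt2 and Mt3, the metal-responsive transcription factor Mtf1, the zinc exporters Slc30a1 and Slc30a3, and the zinc importer Slc39a8. They were chosen by symbol, with the difference of their summed counts between Ets1 eKO and control cells already known, so their values in that comparison are given as a description and without a test. Cells came from E14.5 mouse ventricles, that is, from embryonic day 14.5. Control libraries were Tie2Cre;Ets1 fl/+ and Ets1 eKO libraries were Tie2Cre;Ets1 fl/fl, with 2 libraries per genotype and 3 ventricles pooled in each, all on a C57BL/6 background, of both sexes, untreated and labelled as a single batch. All embryos therefore carried the Cre transgene and at least 1 conditional allele. Tie2Cre recombines in endothelial and endocardial cells and their descendants and in blood lineages, so cushion mesenchyme and immune cells were also exposed to Cre. The study asked how loss of Ets1, an ETS family transcription factor, in the endothelium alters the developing ventricular wall.

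Metallothioneins are small cysteine-rich proteins that bind zinc and copper in the cytosol and buffer the free ion. Their genes are induced by zinc, cadmium, glucocorticoids and oxidative stress, and the zinc response runs through Mtf1, which binds metal response elements in the promoters of Mt1, Mt2 and Slc30a1 when cellular zinc rises. Slc30a1 carries zinc out across the plasma membrane, Slc30a3 loads zinc into vesicles and is best known from neurons, and Slc39a8 brings zinc and manganese into the cell. Mt1 and Mt2 lie next to each other and are usually expressed together, whereas Mt3 is known mainly from brain.

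On GRCm38 (GENCODE vM21) the metallothionein genes lay in a row on the plus strand of chromosome 8. Mt1 spanned chr8:94179082-94180327. Mt2 spanned chr8:94172664-94173568, with its start 6.42 kb before that of Mt1, and Mt3 spanned chr8:94152607-94154146, 26.5 kb before it. Mt4, the remaining member of the row at chr8:94137197-94139031, had 0 UMIs in every library and cell type. Slc30a1 lay on chromosome 1 (191906767 to 191913247, plus strand), Slc39a8 on chromosome 3 (135825279 to 135888572, plus strand), Mtf1 on chromosome 4 (124802104 to 124849800, plus strand) and Slc30a3 on chromosome 5 (31086106 to 31108237, minus strand). The longest run of bases shared between the annotated transcripts of Mt1, Mt2 and Mt3 was 27 bases, and no window of 50 bases of any of them occurred in another gene, so their reads can be told apart.

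All 7 genes had an entry among the RefSeq promoters (GRCm38.p6), 9 entries in all, because Slc30a3 and Slc39a8 have a pair of starts each. The promoters of Mt1, Mt2 and Slc30a3 are shown because Mt1 and Slc30a3 were higher in eKO mural endocardial cells and Mt2 was not. That of Slc30a1 is shown because it is a standard target of Mtf1. Each runs 5′ to 3′ on the strand of its gene and ends just before the annotated start of the gene or transcript, and the capitals mark a core of the metal response element, TGCACNC or TGCGCNC, on either strand. These cores differ by a single letter, so no position can match both.
Mt1 (chr8:94178839-94179081, plus strand): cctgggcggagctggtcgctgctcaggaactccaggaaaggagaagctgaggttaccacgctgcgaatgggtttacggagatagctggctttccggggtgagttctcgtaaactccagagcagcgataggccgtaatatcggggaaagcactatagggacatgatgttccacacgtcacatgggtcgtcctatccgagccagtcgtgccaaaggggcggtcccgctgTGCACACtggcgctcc
Mt2 (chr8:94172368-94172617, plus strand): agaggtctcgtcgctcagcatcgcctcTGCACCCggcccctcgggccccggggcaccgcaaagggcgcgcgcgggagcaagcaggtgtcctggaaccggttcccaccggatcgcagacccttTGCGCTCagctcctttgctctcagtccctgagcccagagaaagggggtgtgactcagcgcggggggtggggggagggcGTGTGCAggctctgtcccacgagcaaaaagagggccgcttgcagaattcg
Slc30a1 (chr1:191906531-191906766, plus strand): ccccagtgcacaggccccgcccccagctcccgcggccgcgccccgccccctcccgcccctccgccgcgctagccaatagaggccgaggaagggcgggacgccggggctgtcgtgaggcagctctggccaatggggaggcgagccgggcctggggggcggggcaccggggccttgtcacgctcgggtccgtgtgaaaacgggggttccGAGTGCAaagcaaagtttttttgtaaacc
Slc30a3 (chr5:31108245-31108494, minus strand): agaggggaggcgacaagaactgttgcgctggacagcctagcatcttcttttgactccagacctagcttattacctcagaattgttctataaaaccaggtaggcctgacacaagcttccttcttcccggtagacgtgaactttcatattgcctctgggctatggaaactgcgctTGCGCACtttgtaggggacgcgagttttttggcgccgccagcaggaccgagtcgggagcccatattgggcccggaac

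All 250 bases before the RefSeq start were searched, while the runs printed for Mt1 and Slc30a1 stop at the earlier GENCODE start, after 243 and 236 bases. Mt2 held 3 metal response cores, Mt1, Slc30a1 and the first promoter of Slc30a3 held 1 each, the second promoter of Slc39a8 held 1, and Mt3, Mtf1 and the remaining promoters of Slc30a3 and Slc39a8 held 0. Among all 32851 RefSeq promoters of that length, 21.4% held at least 1 such core and 1.26% held 3 or more. The count for Mt1 depended on which start was taken. RefSeq and GENCODE list an early start of Mt1, and GENCODE lists 2 later starts at positions 94179211 and 94179241, and the 250 bases before either of these held 5 metal response cores, a number reached by 0.0822% of the RefSeq promoters. The ETS core was searched as CCGGAA or CAGGAA on both strands, which 35.1% of promoters held. The Mt1 window before the RefSeq start held 3 of them (1 CCGGAA and 2 CAGGAA), with first bases at 94178862, 94178871 and 94178929. Each lies more than 250 bases before either later start of Mt1, and the windows of those starts were not searched for ETS cores. Mtf1 and the first promoter of Slc30a3 held 1 CCGGAA each, both promoters of Slc39a8 1 CAGGAA each, and Mt2, Mt3 and Slc30a1 held 0. A match shows only that these letters are present in the window, and the absence of a match shows only that they are not.

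The libraries held 45551 barcodes, between 7949 and 14951 per library, with totals of 76931208 to 124140739 UMIs. The median UMIs per barcode were 8222 to 8630 in 3 libraries and 5632 in eKO 2, the shallowest. After the cell filters 42487 cells remained, and gates on fixed marker genes placed 39388 of them in a cell type. Of 45360 barcode sequences, 191 occurred in more than 1 library. Sex-linked transcripts showed that control 1 held almost only male cells and eKO 2 almost only female cells, whereas control 2 and eKO 1 were mixed, so genotype and sex partly overlapped. All 10 cell types held the marker that defines them at its highest level among the types: Fabp4 in coronary vascular endothelial (cvEC-like) cells, Npr3 in mural endocardial (mEndo-like) cells, Nfatc1 in valve endocardial (vEndo-like) cells, Tnnt2 in cardiomyocyte-like cells, Upk3b in epicardial-like cells, Tcf21 in the Tcf21-type fibroblasts, Sox9 in cushion-like cells, Rgs5 in mural-like cells, Tyrobp in immune-like cells and Hbb-bs in erythroid-like cells. These are markers the gates used.

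Ets1 itself was lower in the eKO in each endothelial type, at 283 and 263 counts per 1000000 (CPM) in the controls against 120 and 94 in the eKO in mEndo-like cells (log2 fold change -1.29, SE 0.14, edgeR quasi-likelihood adjusted p = 0.00142). The adjusted p was 0.0211 in cvEC-like cells (-1.12 on the log2 scale) and 0.00805 in vEndo-like cells (-1.16), and Ets1 was not called in cardiomyocyte-like cells (0.14, adjusted p = 0.709). The UMIs come from the 3′ end of the transcript and the exons removed by Cre are not given in the sources used here, so this level is no direct measure of the deletion.

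Mt1 was higher in the eKO in all endothelial types and by far more there than elsewhere. The CPM are a gene's UMIs summed over the cells of a type in a library, relative to all UMIs of those cells. In cvEC-like cells, which line the coronary plexus, Mt1 stood at 5.91 CPM in control 1 and 8.07 in control 2, against 249 in eKO 1 and 177 in eKO 2. In mEndo-like cells, which line the ventricular wall, it stood at 7.90 and 11.8 CPM in the controls and at 236 and 219 in the eKO. In vEndo-like cells the controls held 51.1 and 18.4 CPM and the eKO 471 and 374. Both eKO libraries were above both controls in each of these types, as were those of 14.2%, 19.3% and 16.8% of all genes tested in cvEC-like, mEndo-like and vEndo-like cells, and nothing is read from the separation alone.

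As folds of the group means, Mt1 was 30.5 times higher in cvEC-like, 23.1 times higher in mEndo-like and 12.1 times higher in vEndo-like cells. The control levels of the first 2 rest on few UMIs, and the shares of cells given below do not set them apart from background, so the size of these folds depends on that background and no order is read from them. The fitted log2 fold changes were 5.05 (SE 0.24), 4.61 (SE 0.19) and 3.63 (SE 0.30). The underlying counts were 34 and 26 UMIs against 988 and 814 in cvEC-like cells, 71 and 83 against 1952 and 2195 in mEndo-like cells, and 53 and 18 against 408 and 239 in vEndo-like cells. When cell types were taken from clusters instead of gates, the vEndo-like value was 2.06 on the log2 scale, and without control 1, which held most of the Mt1 UMIs of the control vEndo-like cells, it was 4.56. The mEndo-like value lay between 4.32 and 5.02 over all 12 alternatives and the cvEC-like value between 4.79 and 5.27.

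**Figure D1:**
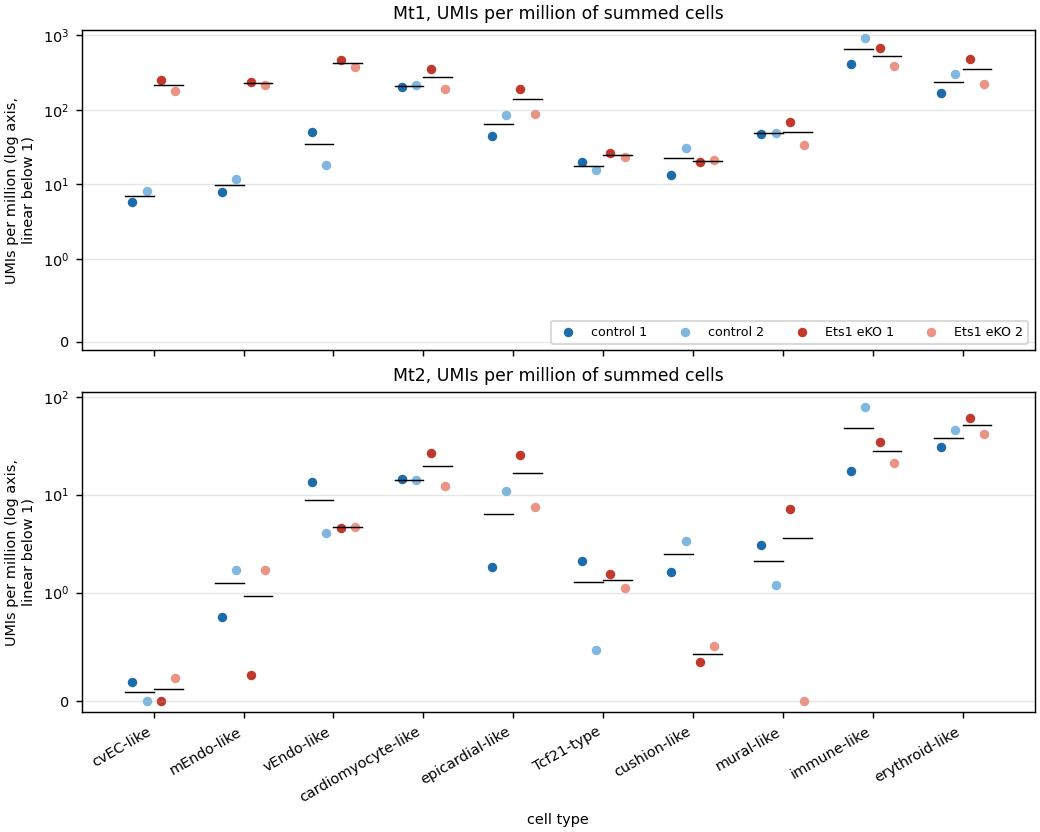
Mt1 (top) and Mt2 (bottom) in 10 cell types, as CPM of the summed cells of each library, on a log axis that is linear below 1. Points are the 2 control and 2 Ets1 eKO libraries and bars the group means. Mt1 in the 3 endothelial types was 5.91 to 51.1 in the controls and 177 to 471 in the eKO, whereas the Mt2 libraries of both genotypes overlapped there.

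Outside the endothelium the libraries of both genotypes overlapped in Mt1 in 5 types, and in epicardial-like and Tcf21-type cells the eKO was above the controls by less than in any endothelial type. Cardiomyocyte-like cells held 206 and 214 CPM in the controls and 357 and 191 in the eKO, so that eKO 1 was above and eKO 2 below both controls (log2 fold change 0.49, SE 0.27). Without eKO 1 this value was -0.014. The compact-like and trabecular-like cardiomyocytes gave a similar picture, at 231 and 251 against 405 and 217 CPM in the former and 136 and 110 against 193 and 133 in the latter.

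Epicardial-like cells held 45.2 and 85.9 CPM in the controls and 191 and 88.7 in the eKO. The value of eKO 2 was barely above that of control 2, and the fold of the means of 2.14 rested on eKO 1. Of all genes in these cells, 13.7% had both eKO libraries above both controls. The fitted log2 fold change was positive in all 12 alternatives (0.52 to 1.74). Tcf21-type fibroblasts held 20.3 and 15.6 CPM against 26.8 and 23.1, a fold of 1.39 without overlap, where 11.3% of all genes had both eKO libraries above both controls. Cushion-like cells, the mesenchyme of the valve primordia, held 13.6 and 31.1 CPM against 19.9 and 21.3, and the mural-like cells of the vessel wall held 47.7 and 49.7 against 68.3 and 33.8. Both overlapped.

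The cell types with the highest Mt1 also overlapped between genotypes. Immune-like cells held 419 and 910 CPM in the controls and 674 and 383 in the eKO. Erythroid-like cells held 168 and 304 CPM against 480 and 220. In erythroid-like cells haemoglobin transcripts fill a large share of the counts, and the direction depended on the scaling: the means in CPM gave a fold of 1.49 and the fit with TMM scaling, which allows for such dominant genes, a log2 fold change of -0.06 (SE 0.53).

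The levels of Mt1 in the control libraries give the order of cell types without the genotype difference. Immune-like cells stood first with 665 ± 348 CPM (SD, n = 2), followed by erythroid-like cells with 236 ± 95.8 and cardiomyocyte-like cells with 210 ± 5.37. Epicardial-like (65.5 ± 28.8), mural-like (48.7 ± 1.45), vEndo-like (34.8 ± 23.1), cushion-like (22.3 ± 12.4), Tcf21-type (17.96 ± 3.34), mEndo-like (9.85 ± 2.76) and cvEC-like cells (6.99 ± 1.53) followed. In CPM, the control and eKO means of Mt1 were furthest apart in vEndo-like cells (34.8 against 423).

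In a fit across cell types over the control libraries alone, cardiomyocyte-like cells were above epicardial-like cells by 2.03 on the log2 scale (SE 0.32, edgeR adjusted p = 1.68e-05), and no neighbours below them in the order differed (adjusted p 0.0721 to 0.722). With TMM scaling erythroid-like cells were above immune-like cells by 1.09 (adjusted p = 0.00273), against the order in CPM, for the reason given above. Of 45 pairs of cell types, Mt1 differed in 36 in the controls, where 37.8% of all tests of a gene in a pair passed. Over all 4 libraries it was 29 of 45, where 50.9% of all tests passed.

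In the eKO, Mt1 in cvEC-like and mEndo-like cells, the lowest 2 types of this order, was near the cardiomyocyte level, and in vEndo-like cells, the sixth in the order, above it. Set against cardiomyocyte-like cells of the same library, Mt1 in mEndo-like cells was 3.83% and 5.53% in the controls and 66.2% and 115% in the eKO. In cvEC-like cells the values were 2.87% and 3.78% against 69.9% and 92.7%, and in vEndo-like cells 24.8% and 8.63% against 132% and 197%. Summed cardiomyocyte marker genes, a measure of cardiomyocyte RNA in these cells, stood at 2.16% and 1.01% of the cardiomyocyte level in control mEndo-like cells and at 1.87% and 2.73% in the eKO. They were at 0.638% to 1.68% in cvEC-like cells and 1.42% to 2.62% in vEndo-like cells. As a share of the cardiomyocyte level, Mt1 in the eKO was 35.4 to 77.7 times that of the muscle markers in these types. In the controls it was 1.78 to 14.3 times.

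**Figure D2:**
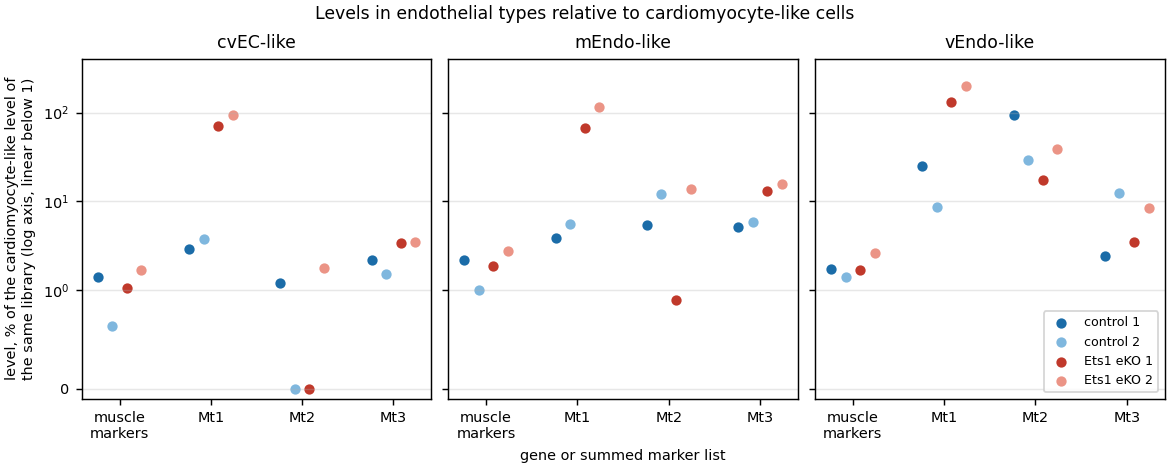
Levels in cvEC-like, mEndo-like and vEndo-like cells as a percentage of the level in cardiomyocyte-like cells of the same library, on a log axis that is linear below 1, for the summed cardiomyocyte marker genes, Mt1, Mt2 and Mt3. Each point is a library. The muscle markers lie at 0.638% to 2.73% in both genotypes, and Mt1 in the eKO at 66.2% to 197%.

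Single cells gave the same picture as the sums. Each cell was thinned to 2000 UMIs so that depth could not set the share. A Mt1 UMI was found in 1.80% and 2.44% of control mEndo-like cells (95% exact binomial intervals 1.09 to 2.80 and 1.47 to 3.78) and in 37.2% and 33.9% of eKO mEndo-like cells (34.2 to 40.3 and 31.7 to 36.1). In cvEC-like cells the shares were 0.752% and 0.926% against 32.3% and 28.3%. In vEndo-like cells they were 9.35% and 0.980% against 50.9% and 49.2%. Intervals cover counting error only. Tcf21-type fibroblasts, with a low Mt1 level in both genotypes, gave 2.92% to 3.86%. The control cvEC-like and mEndo-like shares did not exceed this and are not set apart from background. Whether Tcf21-type cells express Mt1 themselves was not tested.

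Without thinning, the mEndo-like shares were 5.89% and 4.94% in the controls and 72.2% and 56.9% in the eKO, at median depths of 6837 and 7385.5 against 6894 and 4258.5 UMIs per cell. Tcf21-type fibroblasts then gave 7.46% to 11.7%, at median depths of 4394 to 7729 UMIs. Cells left out for having under 2000 UMIs numbered 48 and 31 in the control and 36 and 130 in the eKO mEndo-like cells. Cardiomyocyte-like cells had a Mt1 UMI in 30.0% and 29.3% of control and 41.6% and 28.8% of eKO cells after thinning.

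**Figure D3:**
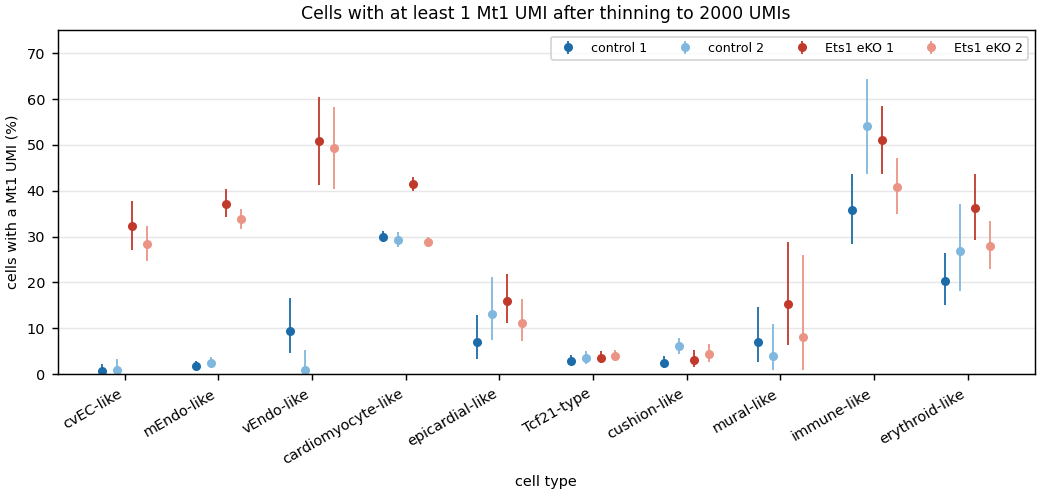
Percentage of cells with at least 1 Mt1 UMI after thinning to 2000 UMIs, by cell type and library. Points are libraries and bars 95% exact binomial intervals of counting error. The eKO shares in cvEC-like, mEndo-like and vEndo-like cells run from 28.3% to 50.9% and the control shares from 0.752% to 9.35%.

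The Mt1 UMIs were spread over many endothelial cells. After thinning, eKO mEndo-like cells held 0.503 and 0.457 Mt1 UMIs per cell on average, 9.91% and 9.09% of cells had 2 or more, and the 10% of cells with the most held 45.9% and 47.8% of the UMIs. For comparison, the top 10% held 52.8% and 54.1% in control cardiomyocyte-like cells, whose mean was 0.422 and 0.420. Control mEndo-like cells held 0.0180 and 0.0462 per cell, and in control 2 the highest cell held 13.

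Mt1 in the eKO was high in cycling and other cells and in cells of either sex. In mEndo-like cells the cycling cells of eKO 1 and eKO 2 held 236 and 216 CPM and the others 237 and 227. In cvEC-like cells the values were 236 and 170 against 269 and 196. In eKO 1, the eKO library with cells of both sexes, female cells held 237 CPM and male cells 215 in mEndo-like cells, 233 and 263 in cvEC-like cells, and 438 and 419 in vEndo-like cells. In control 2 the female and male mEndo-like cells held 4.18 and 16.8 CPM. Within each sex, Mt1 in mEndo-like cells of eKO 1 was therefore far above that of control 2.

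Cells were also split by an Ets1 UMI, a split made after seeing the data. Mt1 in eKO mEndo-like cells was 228 and 188 CPM in cells with an Ets1 UMI and 250 and 240 CPM in cells without. The cells with an Ets1 UMI were deeper, with medians of 8098.5 and 5053.5 UMIs against 6078 and 3986. In control mEndo-like cells Mt1 was 7.53 and 8.98 CPM with and 9.85 and 26.7 CPM without an Ets1 UMI.

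Mt2, the neighbour of Mt1 and likewise a metallothionein, showed no separation of the genotypes within cvEC-like, mEndo-like or vEndo-like cells. In cvEC-like cells Mt2 had 1 and 0 UMIs in the controls and 0 and 1 in the eKO. In mEndo-like cells it had 7 and 12 UMIs in the controls and 2 and 17 in the eKO, or 0.779 and 1.71 against 0.242 and 1.70 CPM. In vEndo-like cells it had 14 and 4 UMIs against 4 and 3, or 13.5 and 4.10 against 4.61 and 4.70 CPM. The genotypes overlapped in each of the 3 types. Over all endothelial-like cells, which include those without a sub-type described at the end, Mt2 had 36 and 31 UMIs in the controls against 7 and 21 in the eKO. Relative to all UMIs of those cells, both eKO libraries were below both controls (log2 fold change -1.26, SE 0.44). Of all genes tested in endothelial-like cells, 33.9% were so. The fitted log2 fold change in mEndo-like cells was -0.17 with an SE of 0.73, and its direction turned with a library left out, from -2.20 without eKO 2 to 0.57 without eKO 1.

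The ratio of the 2 genes needs no scaling between libraries. It contains the Mt1 difference for which the gene was chosen, so it is given as a description. The few Mt1 UMIs of the control cvEC-like and mEndo-like cells were also not set apart from background above. In control mEndo-like cells there were 9.86 and 14.5 Mt2 UMIs per 100 Mt1 UMIs, and in the eKO 0.102 and 0.774. Pooled over the libraries of a genotype the ratios were 12.3 (95% interval of counting error 7.23 to 19.9) and 0.458 (0.276 to 0.716). Over all endothelial-like cells they were 15.99 (12.2 to 20.7) and 0.401 (0.266 to 0.581), and in vEndo-like cells 25.4 (14.2 to 43.0) and 1.08 (0.433 to 2.24).

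In cushion-like cells, whose Mt1 overlapped between genotypes, the ratio was also lower in the eKO, at 11.9 and 10.9 in the controls (7 and 19 Mt2 UMIs) against 1.82 and 2.38 in the eKO (1 Mt2 UMI in each). The pooled values there were 11.2 (7.14 to 16.8) and 2.06 (0.246 to 7.65). In the types with the highest Mt1 the ratios of the genotypes were closer. Cardiomyocyte-like cells held 7.01, 6.63, 7.52 and 6.42 Mt2 UMIs per 100 Mt1 UMIs in control 1, control 2, eKO 1 and eKO 2. Immune-like cells held 4.13 and 8.68 in the controls against 5.09 and 5.54 in the eKO, erythroid-like cells 18.2 and 15.2 against 12.6 and 18.9, and epicardial-like cells 9.38 against 12.2 pooled by genotype. Where eKO 1 held more Mt1, in cardiomyocyte-like and epicardial-like cells, it also held more Mt2. In cardiomyocyte-like cells Mt2 was at 14.4 and 14.1 CPM in the controls and 26.8 and 12.2 in the eKO, and in epicardial-like cells at 1.84 and 10.9 against 25.5 and 7.47.

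**Figure D4:**
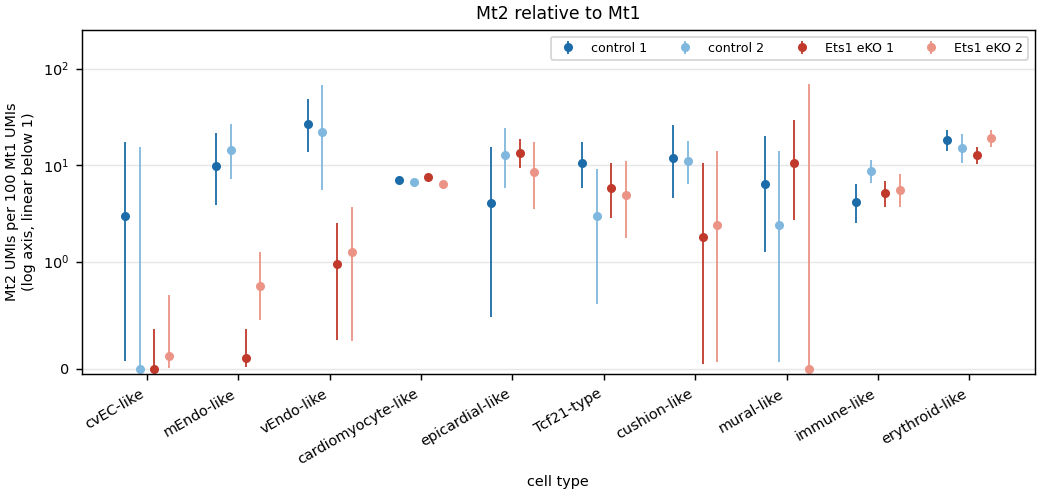
Mt2 UMIs per 100 Mt1 UMIs by cell type and library, with 95% intervals of counting error, on a log axis that is linear below 1. In mEndo-like and vEndo-like cells the controls lie at 9.86 to 26.4 and the eKO libraries at 0.102 to 1.26, and in cardiomyocyte-like cells all 4 libraries lie at 6.42 to 7.52.

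The share of cells with both transcripts varied between libraries. After thinning, 4.93% and 5.54% of control and 8.65% and 4.20% of eKO cardiomyocyte-like cells with a Mt1 UMI also had a Mt2 UMI. In mEndo-like cells this was 0 of 19 cells with a Mt1 UMI in control 1, 2 of 19 in control 2, 0 of 368 in eKO 1 and 2 of 626 in eKO 2, so the genotypes overlapped at this depth. With all UMIs it was 7.69% and 17.5% in the controls (5 and 7 cells with both) against 0.270% and 0.444% in the eKO (2 and 5 cells), without overlap, and over all endothelial-like cells after thinning 10.8% and 11.1% (4 and 3 cells) against 0.179% and 0.227% (1 and 2 cells). These shares also contain the Mt1 difference, since cells with a Mt1 UMI are their denominator. The other types held few such cells, with up to 12 in a library, and shares of up to 32.0% (8 of 25 erythroid-like cells with a Mt1 UMI in control 2). Across cell types, Mt2 differed in 34 of 45 pairs over all libraries, where 50.9% of all tests passed, and in 27 in the controls alone, where 37.8% did. Over all libraries cardiomyocyte-like cells were above mEndo-like cells by 4.21 on the log2 scale (edgeR adjusted p = 8.23e-13), and the lowest mean level was that of cvEC-like cells, at 0.0977 ± 0.114 CPM (SD, n = 4).

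Mt3 is a gene of cardiomyocytes in these ventricles. It stood at 39.4 and 41.2 CPM in control and 66.3 and 37.6 in eKO cardiomyocyte-like cells, and these were above each of the 9 other types. Over mEndo-like cells, the next in CPM over all libraries, this was by 3.68 on the log2 scale (SE 0.18, edgeR adjusted p = 1.85e-20). With TMM scaling erythroid-like cells were above mEndo-like cells by 2.34 (edgeR adjusted p = 2.65e-06), so mEndo-like cells were not the nearest type in that fit. In the controls alone vEndo-like cells were next in CPM. The trabecular-like cells held 53.8 and 58.1 against 96.6 and 53.4 CPM, and the compact-like cells 32.7 and 34.5 against 58.4 and 29.1. As with Mt1 and Mt2, eKO 1 was high and eKO 2 near the controls.

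In mEndo-like cells Mt3 stood at 2.00 and 2.42 CPM in the controls and at 8.71 and 5.89 in the eKO, from 18 and 17 against 72 and 59 UMIs. Both eKO values were above both controls, and the log2 fold change was 1.78 (SE 0.32). Set against cardiomyocyte-like cells of the same library, this was 5.08% and 5.87% against 13.1% and 15.7%, where the muscle markers were at 1.01% to 2.73%. In cvEC-like cells it had 5 and 2 UMIs against 9 and 6, and in vEndo-like cells 1 and 5 against 2 and 2. The Mt3 difference in mEndo-like cells thus rests on few UMIs.

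Slc30a3, the vesicular zinc exporter, was close to absent from the control ventricles. In mEndo-like cells it had 1 and 0 UMIs in the controls and 41 and 41 in the eKO, or 0.111 and 0 against 4.96 and 4.09 CPM. The ratio of the pooled levels was 71.9, with a counting interval of 12.5 to 2872. In vEndo-like cells it had 0 and 0 UMIs against 2 and 1, and in cvEC-like cells 0 and 0 against 0 and 1. Cardiomyocyte-like cells, with many more UMIs in all, held 11 and 2 against 2 and 10, and epicardial-like, mural-like and erythroid-like cells held 0 in every library. Of the 100 Slc30a3 UMIs of the eKO in the 10 types, 82 were thus in mEndo-like cells, and 17 more lay in barcodes without a named type. Even in mEndo-like cells they were rare: after thinning, a Slc30a3 UMI was found in 1.21% and 0.866% of eKO mEndo-like cells, against 1 of 1055 cells in control 1 and 0 of 779 in control 2, where a limit of 3 counts allows a share of cells with a UMI of up to 0.385%.

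Slc30a1, the zinc exporter of the plasma membrane, was low and did not follow Mt1. It stood at 7.45 and 6.97 CPM in control and 6.41 and 5.09 in eKO mEndo-like cells, at 7.99 and 9.31 against 7.57 and 10.9 in cvEC-like cells, and at 9.65 and 15.4 against 6.92 and 12.5 in vEndo-like cells. The fitted log2 fold changes were -0.27 (SE 0.24), 0.20 (SE 0.28) and -0.36 (SE 0.52). Across cell types its mean was highest in epicardial-like cells at 14.8 ± 2.50 CPM (SD, n = 4), followed by immune-like cells at 12.9 ± 6.66, vEndo-like cells at 11.1 ± 3.64 and cvEC-like cells at 8.93 ± 1.48, which did not differ from one neighbour to the next. Cardiomyocyte-like cells (4.94 ± 0.780) were below cvEC-like cells by 0.69 on the log2 scale (edgeR adjusted p = 0.00124), and in the control libraries alone by 0.53, which was no longer called.

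Slc39a8, the zinc and manganese importer, was a gene of the epicardium here. Epicardial-like cells held 55.3 and 39.1 CPM in the controls and 56.0 and 50.4 in the eKO, and the other types had means of 0.703 to 11.6. The difference from cardiomyocyte-like cells was 2.86 on the log2 scale (adjusted p = 3.26e-15), and epicardial-like cells were above 8 of the other types, erythroid-like cells being the exception under TMM scaling (adjusted p = 0.500). In mEndo-like cells it was at 11.6 and 11.0 CPM in the controls and 5.93 and 6.19 in the eKO, with a log2 fold change of -0.83 (SE 0.21). In cvEC-like cells it was at 4.34 and 4.03 against 2.78 and 1.95 CPM, from 25 and 13 against 11 and 9 UMIs.

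Mtf1, the zinc sensor upstream of Mt1, had means of 13.7 to 23.9 CPM in 9 types and of 2.47 CPM in erythroid-like cells. With TMM scaling, which allows for haemoglobin, epicardial-like cells did not differ from erythroid-like cells (-0.12 on the log2 scale, SE 0.33, edgeR adjusted p = 0.7999). Mtf1 differed in 21 of 45 pairs of types over all libraries and in 8 in the controls alone, where 50.9% and 37.8% of all tests passed. It stood at 25.1 and 23.6 CPM in control and 20.4 and 23.0 in eKO mEndo-like cells (log2 fold change -0.10, SE 0.16) and at 30.1 and 23.0 against 18.9 and 23.7 in cvEC-like cells. Cardiomyocyte-like cells (13.8 ± 0.565 CPM, SD, n = 4) were below cvEC-like cells by 0.63 on the log2 scale (edgeR adjusted p = 1.63e-07).

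**Figure D5:**
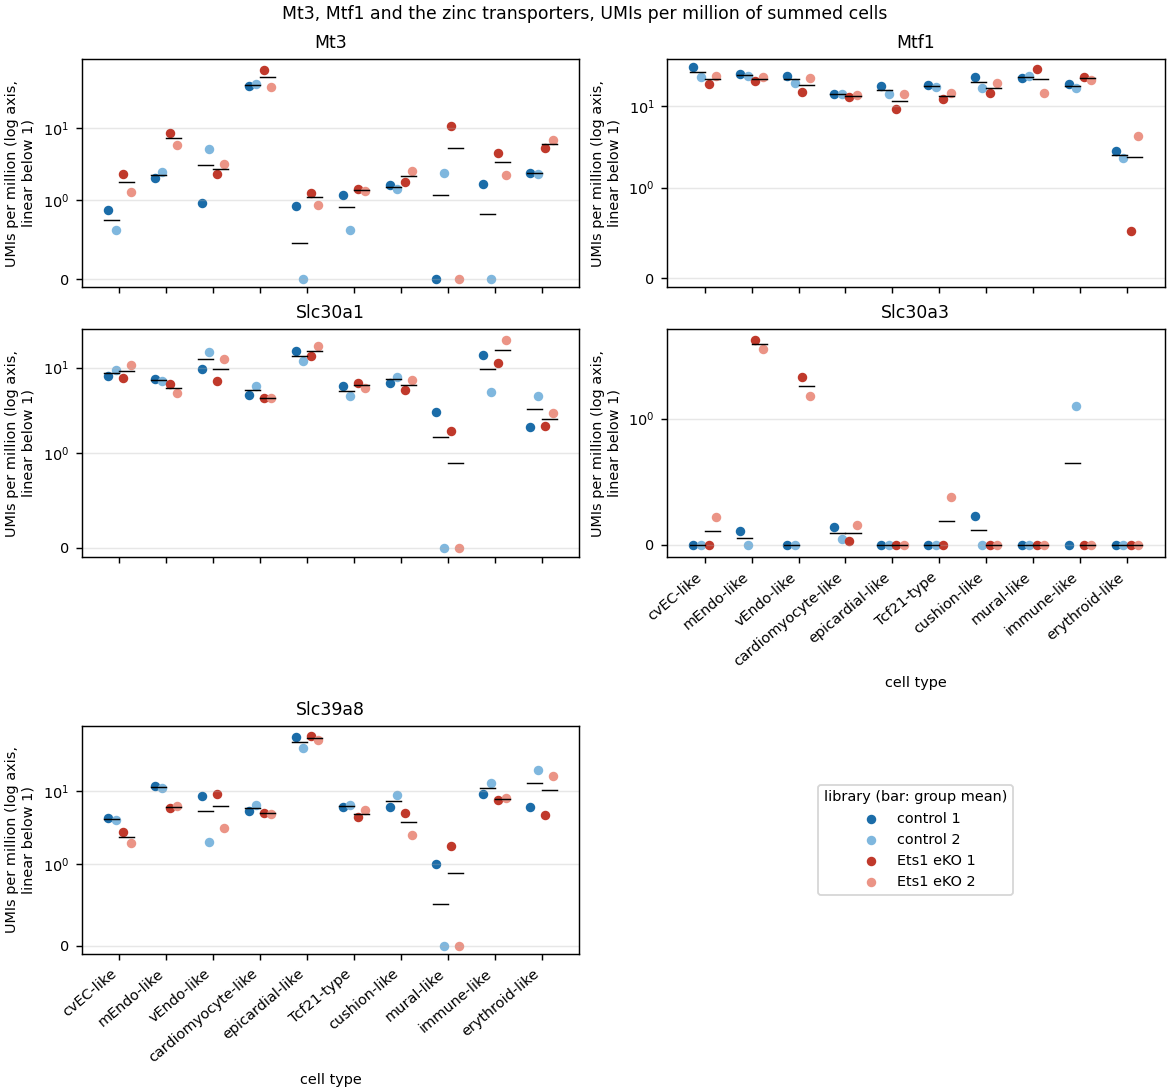
Mt3, Mtf1, Slc30a1, Slc30a3 and Slc39a8 in 10 cell types, as CPM of the summed cells of each library, on log axes that are linear below 1. Points are libraries and bars group means. Mt3 peaks in cardiomyocyte-like cells (37.6 to 66.3), Slc39a8 in epicardial-like cells (39.1 to 56.0), and Slc30a3 is seen mainly in eKO mEndo-like cells (4.96 and 4.09).

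The members were counted over 10 cell types that do not share cells, whether or not they passed the filter on low counts. Both eKO libraries were above both controls in 5 types for Mt1, 7 for Mt3, 2 for Slc30a3, 1 for Mtf1 and 0 for Mt2, Slc30a1 and Slc39a8. Of all pairs of a gene and a cell type that passed this filter, 16.5% were so. Both eKO libraries were below both controls in 6 types for Slc39a8, 4 for Mtf1, 2 for Slc30a1, 1 for Mt2 and 0 for the rest. Of the pairs that passed the filter, 27.8% were so. Mt1 passed the filter on low counts in all 10 types, Mtf1 in 9, Slc30a1 and Slc39a8 in 8 each, Mt2 in 6, Mt3 in 3 and Slc30a3 in 1, mEndo-like cells, where only the eKO libraries held more than 1 UMI. As the genes were chosen for this contrast, nothing is read from these counts.

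The other genes of zinc transport and of the inducers of metallothioneins were tested as lists chosen by function, with earlier results of these data known. Of 8 further zinc exporters and 13 further zinc importers, 130 tests of a gene in a cell type could be made over the 10 types. Of these, 0 passed at an adjusted p of 0.05 in edgeR's quasi-likelihood test or in DESeq2, with 11 at an unadjusted p under 0.05. By edgeR 0% of all genes were called in cardiomyocyte-like, Tcf21-type, epicardial-like, mural-like and erythroid-like cells, and 0.0641% to 2.54% in the other types. The count of 0 is near these shares, and nothing is read from it. The share of all genes at an unadjusted p under 0.05 was not taken. In mEndo-like cells the median log2 fold change was -0.25 for 5 exporters and 0.09 for 9 importers, against 0.0029 for all genes. Slc39a14, an importer of zinc and iron, was at 9.56 and 14.1 CPM in the controls and 8.59 and 6.09 in the eKO (-0.63, adjusted p = 0.211) and had the lowest fitted value of the importers there. It was named after its values were seen and was not called.

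Lists of copper handling, iron handling, Nrf2 target and glucocorticoid target genes also gave 0 calls over the same cell types as the zinc lists. This held in 68, 51, 53 and 44 tests, by edgeR's quasi-likelihood test and by DESeq2. Of these, 5, 3, 8 and 7 had an unadjusted p under 0.05, a share that was not taken for all genes. By edgeR 0% of all genes were called in cardiomyocyte-like, Tcf21-type, epicardial-like, mural-like and erythroid-like cells. The other types had 0.0641% to 2.54% of all genes called, and nothing is read from the list counts of 0. Of 15 genes besides Mt2 and Mt3 within 250 kb of Mt1 on chromosome 8, 6, 7 and 5 could be tested in cvEC-like, mEndo-like and vEndo-like cells and 0 were called, with log2 fold changes of -0.79 to 0.27. Of all genes, 0.657% were called in cvEC-like, 2.54% in mEndo-like and 0.493% in vEndo-like cells. The window was chosen after seeing the data, and Mt2 and Mt3 lie in it and are described above.

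Genes of the response to dissociation were taken as a list of 10 heat shock and immediate early genes. The list was chosen by function but with earlier results of these data known, so its calls are a description. In mEndo-like cells 7 of 10 were called lower in the eKO and 0 higher, where 1.31% of all genes were called lower. Hspa1a, an inducible heat shock protein 70 gene, was at 51.9 and 17.5 CPM in the controls and 2.42 and 3.79 in the eKO (log2 fold change -3.40, SE 0.47, edgeR adjusted p = 0.00485), and its twin Hspa1b was at 55.3 and 26.7 against 5.32 and 4.89. These 2 genes are near-identical copies, so their reads may be split between them. Fosb was at 59.7 and 59.2 CPM against 18.5 and 23.96 (-1.42, adjusted p = 0.00157), and Fos, like it an immediate early transcription factor, at 355 and 240 against 120 and 116 (-1.27, adjusted p = 0.00465). Without control 1, which held the highest Hspa1a and Hspa1b, 4 of the 10 genes were called lower.

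In vEndo-like cells 1 of these genes, Junb, was called lower and in cvEC-like cells 0 of 9 tested, with 3 at an unadjusted p under 0.05 and 0 by DESeq2. The summed level was 1719 and 1351 CPM in control against 753 and 902 in eKO mEndo-like cells, 1725 and 1372 against 1097 and 1228 in cvEC-like cells, and 4300 and 2799 against 2564 and 2324 in vEndo-like cells. It was lower in both eKO libraries than in both controls in 9 of 10 types, cardiomyocyte-like cells included (619 and 521 against 365 and 472), and overlapped only in erythroid-like cells. Its part in the Mt1 difference was not tested.

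Across the 40 sums of 10 cell types in 4 libraries, the gene whose pattern was most like that of Mt1 was Mt2 (Pearson r = 0.69 on log2(CPM + 1), first of 9396 genes with a mean of at least 10 CPM). Syngr1 (0.65), Ghitm (0.63), Htatip2 (0.62) and Gpx1 (0.61) followed. The sums share libraries and differ in depth, so this is a description only. Slc39a8 had an r of 0.17 and Mtf1 of -0.36, and of those with a lower mean Mt3 had 0.36, Slc30a3 0.35 and Slc30a1 0.04. Across all cell types, then, Mt2 had the pattern closest to Mt1, while in the eKO endothelium the 2 genes parted.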

How the data were processed

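Whole-number UMI counts per gene and barcode were deposited by the authors, who processed 10x 3′ v3.1 libraries with Cell Ranger 7.1.0 on mm10, per the submitters' processing notes. The study's methods describe removal of ambient RNA, but whether the deposited counts precede it is not given in the sources used here. Doublets were not called here. The members and gene lists were chosen with earlier results of these data known. The cell filter required 200 to 7000 detected genes and allowed up to 20% of counts from mitochondrial, 35% from ribosomal protein and 2% from haemoglobin genes (erythroid-like cells had at least 20% haemoglobin). Cells were gated on fixed markers without the members, and counts were summed per library and cell type.

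Genotypes were compared with 2 libraries against 2 by edgeR 4.0.16 (quasi-likelihood, TMM, filterByExpr, Benjamini-Hochberg adjusted p at most 0.05, R 4.3.3), where an exact permutation test of a single gene could not go below 0.333. The p-values measure the spread between libraries, each a pool of 3 embryos. DESeq2 1.42.0, total count scaling, no filter, stricter cell filters and gates, Leiden clusters, each library left out and a replicate block were the alternatives. Cell types were compared over all libraries or the controls, with the library in the fit. For shares of cells, each cell was first thinned to 2000 UMIs (95% Clopper-Pearson intervals). The edgeR fit was also run on counts simulated with the spread estimated from these libraries, which checks the calculation and not that estimate. Named genes are the members, up to 4 called genes per fixed list (largest change first), and the 5 genes most like Mt1.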

Additional observations from a re-analysis of the deposited data

Results flagged for a closer look

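Mtf1 was on opposite sides of the controls in different cell types. Both eKO libraries were above both controls in immune-like cells, with a fold of the mean CPM of 1.24, and below both controls in cardiomyocyte-like (0.944), mEndo-like (0.890), Tcf21-type (0.751) and epicardial-like cells (0.738). Of all genes, 13.4% were above in immune-like cells and 36.4%, 33.1%, 30.4% and 25.3% below in the other 4 types. The direction in cardiomyocyte-like cells turned with the scaling, as the fit with TMM gave a log2 fold change of 0.025 and total count scaling -0.082. The difference between these cell types in the effect of genotype was not tested, and the immune-like value rests on 23 and 13 against 31 and 29 UMIs.

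Barcodes outside the named cell types also held Mt1 above the controls. Cells in no gate averaged 177 CPM in the eKO, barcodes removed by the cell filters 164 CPM and endothelial-like cells without a sub-type 302 CPM, against control means of 63.1, 45.5 and 91.9 CPM. Slc30a3 averaged 1.46 CPM in ungated eKO cells and 4.71 CPM in eKO endothelial-like cells without a sub-type, with 0 UMIs in the controls of both. Among the barcodes removed by the filters, Mt2 averaged 9.27 CPM and Mt3 19.0 CPM in the eKO, against 4.90 and 7.21 CPM in the controls.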

How the results depend on the processing

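With 2 libraries per genotype the number of genes called moved widely. In cvEC-like, mEndo-like, vEndo-like and cardiomyocyte-like cells 75, 336, 45 and 0 genes were called, and without a filter on low counts 340, 1133, 203 and 145. DESeq2 called 24 genes in vEndo-like and 37 in cardiomyocyte-like cells. With clusters in place of gates the vEndo-like count was 88. The vEndo-like values from clusters also shifted with small numerical changes in the clustering. The replicate numbers did not pair the libraries (correlations of same-numbered libraries -0.21 to 0.05), a replicate block gave 218, 926, 149 and 17 calls, and crossed numbers, added after seeing the data, 586, 1026, 11 and 40. Leaving out each library gave 141 to 729, 243 to 2019, 104 to 216 and 0 to 2486 calls, the highest without eKO 1 in all but vEndo-like cells, where it was without eKO 2. A lone library was assumed to vary like the other group. The Mt1 log2 fold change stayed positive in every alternative in the 3 endothelial types, at 5.02 with stricter gates in mEndo-like cells and 2.06 with clusters in vEndo-like cells, and with a library left out at 4.79 to 5.27, 4.32 to 4.94 and 3.09 to 4.56 in cvEC-like, mEndo-like and vEndo-like cells and -0.014 to 0.86 in cardiomyocyte-like cells. The zinc lists gave 2 calls with no filter (Slc39a11 in cushion-like and Slc39a14 in epicardial-like cells, both lower) and 0 to 2 with a library left out. The copper, iron, Nrf2 and glucocorticoid lists gave 1 with no filter, 1 with the replicate block, 3 with crossed numbers and 0 to 9 with a library left out, and the dissociation list 4 to 9. Over all libraries cardiomyocyte-like cells were above mEndo-like cells in Mt1 by 1.91 (1.23 to 2.81 with a library left out, no longer called without control 1), and Slc30a1 in cardiomyocyte-like against cvEC-like cells was -0.53 in the controls alone, no longer called. Differences in the share of cells with a Mt1 UMI scale with depth: 16.5, 18.5 and 28.8 percentage points at 1000 UMIs in cvEC-like, mEndo-like and vEndo-like cells, 29.5, 33.4 and 44.9 at 2000, and 58.4, 59.1 and 69.6 with all UMIs. It was 35.9 for vEndo-like cells from clusters, and -0.81 to 11.9 for cardiomyocyte-like cells with a library left out. Control cardiomyocyte-like cells with a Mt1 UMI had a Mt2 UMI in 5.23% at 2000, 2.89% at 1000 and 17.3% with all UMIs. The log2 ratio of Mt1 in female over male mEndo-like cells of eKO 1 was 0.14, and 0.26 with at least 2 sex-linked UMIs per cell. Except where the depth sets the share, the cause of these shifts was not tested.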

Other observations

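Endothelial-like cells that met the endothelial gate but none of its sub-types showed the contrast between Mt1 and Mt2 at higher counts of Mt2. Mt2 stood at 16.4 and 23.8 CPM in the controls (14 and 15 UMIs) and at 1.62 and 0 CPM in the eKO (1 and 0 UMIs), and Mt1 at 82.0 and 102 against 319 and 284 CPM. Which endothelial cells these are is not known.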
